A study of Caenorhabditis elegans with 2 samples.

Results

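Intronic binding regions of PQM-1 outside promoters are described here for late embryos of Caenorhabditis elegans. They were chosen by the deposited signal of regions called on the pooled replicates: of the 2000 strongest of 27694 regions, those whose summit lay in the body of a protein-coding gene, in no exon, outside 1000 bp upstream to 200 bp downstream of every protein-coding transcript start, and more than 200 bp from any tRNA, snoRNA, snRNA or rRNA gene. This left 230 regions in 192 host genes. Because signal and position chose them, both are given as a description, with no test. All positions are in build ce11.

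The series holds 1 group with 2 biological replicates. Both are hermaphrodite embryos of strain OP201 (unc-119(tm4063) III; wgIs201), collected 2 h after synchronization by egg bleaching. The integrated transgene wgIs201 adds PQM-1 with GFP and FLAG at its C terminus to a strain mutant for unc-119, and an anti-GFP antibody pulled the fusion protein down from sonicated whole embryos. A single line was used and all cell types were pooled, so that the cells in which a region was bound cannot be told apart. The files give no read counts and the depth of the libraries is unknown. No untagged strain or input library was analysed here.

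PQM-1 is a C2H2 zinc finger transcription factor of the worm intestine that works opposite the FOXO factor DAF-16 downstream of the insulin receptor DAF-2. It is tied to the DAF-16 associated element TGATAAG, which also holds the GATA core read by the GATA factors that specify the worm gut. Worm genes often have several transcript starts, and a long intron can hold both enhancers and the promoter of a shorter transcript.

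The sequences of the strongest regions show what recurred at the summits. The letters TGATAAG were searched on both strands in windows reaching 100 bp to each side of a summit. Below are 5 of the strongest regions that hold them, each reaching 25 bp beyond the match, from the RefSeq genome of the same assembly. Capitals mark TGATAAG or its reverse complement.
F49E12.12 (chrII:8383041-8383097, plus strand): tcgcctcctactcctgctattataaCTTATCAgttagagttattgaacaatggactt
vhp-1 (chrII:5323980-5324036, plus strand): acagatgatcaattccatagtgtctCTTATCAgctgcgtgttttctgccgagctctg
T13B5.9 (chrII:1103915-1103971, plus strand): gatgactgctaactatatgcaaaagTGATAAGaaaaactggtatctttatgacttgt
slc-25A21 (chrX:16192701-16192757, plus strand): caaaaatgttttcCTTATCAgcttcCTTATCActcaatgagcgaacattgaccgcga
ivns-1 (chrX:12630768-12630824, plus strand): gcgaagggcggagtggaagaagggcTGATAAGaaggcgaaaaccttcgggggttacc
The hosts vhp-1, a phosphatase of stress-activated MAP kinases, and slc-25A21, a mitochondrial carrier, are shown with 3 less studied genes. The match lay 19 bp from the summit in F49E12.12, 14 bp in vhp-1, 40 bp in T13B5.9, 68 bp in slc-25A21 and 7 bp in ivns-1. The slc-25A21 region holds a pair of matches in the printed stretch.

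Weaker regions held the same letters in genes of the gut, signalling and stress lists described further on. These were cpr-6, a cathepsin B-like protease, daf-5, a Ski-type regulator of dauer TGF-beta signalling, jun-1, a homologue of c-Jun, and hlh-30, the worm TFEB.
cpr-6 (chrX:6607698-6607754, plus strand): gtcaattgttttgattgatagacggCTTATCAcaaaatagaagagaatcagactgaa
daf-5 (chrII:14044385-14044441, plus strand): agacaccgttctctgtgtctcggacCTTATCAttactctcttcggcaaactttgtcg
jun-1 (chrII:9128265-9128321, plus strand): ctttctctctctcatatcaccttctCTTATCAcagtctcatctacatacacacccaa
hlh-30 (chrIV:4029480-4029536, plus strand): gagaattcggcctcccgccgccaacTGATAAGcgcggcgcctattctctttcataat
Here TGATAAG lay 1 bp from the summit in cpr-6, 3 bp in daf-5, 30 bp in jun-1 and 50 bp in hlh-30. Their ranks in the pooled list were 1152, 1405, 1412 and 1892.

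Runs of alternating G and A formed another group, shown because the strongest member carries one. Capitals mark GAGAGAGA or its reverse complement.
daf-5 (chrII:14040514-14040571, plus strand): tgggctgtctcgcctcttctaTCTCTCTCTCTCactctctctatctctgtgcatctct
Y111B2A.12 (chrIII:12612732-12612789, plus strand): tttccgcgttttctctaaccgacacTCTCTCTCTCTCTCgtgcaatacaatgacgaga
egl-27 (chrII:6842718-6842775, plus strand): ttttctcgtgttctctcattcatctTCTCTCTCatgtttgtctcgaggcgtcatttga
The daf-5 match lay 12 bp from the summit, that of Y111B2A.12 68 bp and that of egl-27, a homologue of metastasis-associated chromatin proteins, 64 bp. The longest uninterrupted run of this kind among the 230 windows was 39 bp, and the median over the 44 regions with a match was 12.0 bp.

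The palindrome CACGTG, the core E-box of many bHLH factors, marked a smaller set. Capitals mark it below in epg-9, which encodes an autophagy factor of the ATG101 type, in E01G4.3 and in daf-14, a Smad of the dauer TGF-beta pathway.
epg-9 (chrIV:2602073-2602128, plus strand): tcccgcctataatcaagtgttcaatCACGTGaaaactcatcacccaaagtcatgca
E01G4.3 (chrII:13469351-13469406, plus strand): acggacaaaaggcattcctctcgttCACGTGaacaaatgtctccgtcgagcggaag
daf-14 (chrIV:10252460-10252515, plus strand): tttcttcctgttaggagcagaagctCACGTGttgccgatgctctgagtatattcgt
It lay 77, 24 and 19 bp from these summits. The E01G4.3 region carried TGATAAG as well, and the daf-14 region carried GAGAGAGA.

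A further word, GACGCAG, was not on the list of patterns searched at the outset and was picked out from a scan described below. Capitals mark it or its reverse complement.
Y62E10A.13 (chrIV:13395355-13395411, plus strand): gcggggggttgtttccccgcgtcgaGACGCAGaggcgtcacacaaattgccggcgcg
gcn-1 (chrIII:2172219-2172275, plus strand): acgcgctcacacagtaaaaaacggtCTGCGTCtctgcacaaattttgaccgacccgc
inso-1 (chrX:1302389-1302445, plus strand): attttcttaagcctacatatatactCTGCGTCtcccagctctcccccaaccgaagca
It lay 30 bp from the summit in Y62E10A.13, 33 bp in gcn-1, which encodes a translation regulator of the GCN1 type, and 45 bp in inso-1. GACGCAG was also held by regions printed above for other words, among them daf-5 (rank 52), Y111B2A.12 and epg-9. Not every strong region held one of the 4. The region ranked 59, in mom-1, which encodes the Porcupine-type enzyme that lipid-modifies Wnt proteins, had none within 100 bp of its summit, and the 40 bp to each side read as follows.
mom-1 (chrX:6296549-6296629, plus strand): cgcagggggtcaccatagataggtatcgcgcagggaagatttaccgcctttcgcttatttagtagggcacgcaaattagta

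The 230 regions made up 11.5% of the 2000 strongest (exact 95% interval 10.1 to 13.0). Promoters held 1033 of them (51.6%), distal intergenic sequence 306 (15.3%), the surroundings of small RNA genes 244 (12.2%) and exons 187 (9.35%). Below rank 2000 the same position criteria held for 5741 of 25694 regions (22.3%). Introns thus took a smaller share among the strong regions than among the weak ones, whereas the promoter share was 32.4% below rank 2000. The intron sequence that meets the position criteria spans 26578704 bp, 26.5% of the genome, which gives 8.65 members per Mb.

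Signal is the authors' value for each region and is not scaled between lists. It ran from 187 at the top through a median of 65.6 to 55.1, against a median of 72.2 for promoter regions. Most members stood low in the list, with 63 on the list the authors call reproducible (the top of the pooled list), 31 more down to rank 1000 and 136 below it. The last members inside the limit were those of psd-1 (rank 1986, signal 55.14) and pcyt-1 (rank 1995, 55.07), and the next regions outside it were those of lron-3 (rank 2003) and txdc-17 (rank 2005, signal 54.98). The limit thus falls within a run of nearly equal values. Of the members, 122 had a deposited q-value of at most 0.01, as had 4.48% of all pooled regions. The 63 on the reproducible list are 27.4% of the members, against 2.42% of all pooled regions. Both shares follow from the choice by signal. Of the promoter regions among the 2000 it held 35.5%, and of the distal intergenic ones 25.2%. The highest q-value of a member was 0.0333.

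Each replicate's own list was then read at the members' summits. A region of replicate 1 covered 226 summits and one of replicate 2 covered 229. Signal there ran from 13.3 through a median of 31.0 to 84.3 in replicate 1, and from 16.1 through 39.5 to 116 in replicate 2. Among the 2000 strongest regions of replicate 1 were 148 members (64.3%), and among those of replicate 2 were 176 (76.5%). Both held for 105 (45.7%, 39.1 to 52.3), replicate 1 alone for 43, replicate 2 alone for 71 and neither for 11. The share in both was 53.9% for promoter regions, 46.4% for distal intergenic ones, 73.4% beside small RNA genes and 28.9% in exons. All were chosen on the pooled signal, so these shares describe agreement and test nothing. Of the members on the reproducible list, 93.7% were in both.

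The strongest members were strong in each replicate. In the first intron of daf-5 the signal was 82.96 in replicate 1 and 105.2 in replicate 2, at ranks 54 and 61 of those lists. For mom-1 it was 70.43 and 116.3, and for pqn-41, which encodes a polyglutamine protein, 84.32 and 98.42. The region of hmt-1, an ABC transporter for heavy metal tolerance, had 54.93 and 112.5, at ranks 208 and 49. Weaker members included regions that ranked much higher in 1 replicate than in the other. F53E4.1 had 21.66 in replicate 1 (rank 4394) and 63.86 in replicate 2 (rank 312), and cpr-6 had 15.84 (rank 11146) and 51.59 (rank 568). Replicate 1 ranked higher for a second region of daf-2, with 32.81 (rank 1089) and 23.68 (rank 5605). It also did for lin-14, a heterochronic regulator, with 43.32 (rank 453) and 33.17 (rank 1920), among the 2000 strongest of both lists. The median rank over members was 1308 in replicate 1 and 1165 in replicate 2. In 3 pairs of members, in Y67D8A.2, unc-43 and mdt-26, both members share the same replicate regions, so their replicate values are not separate measurements.

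**Figure D1:**
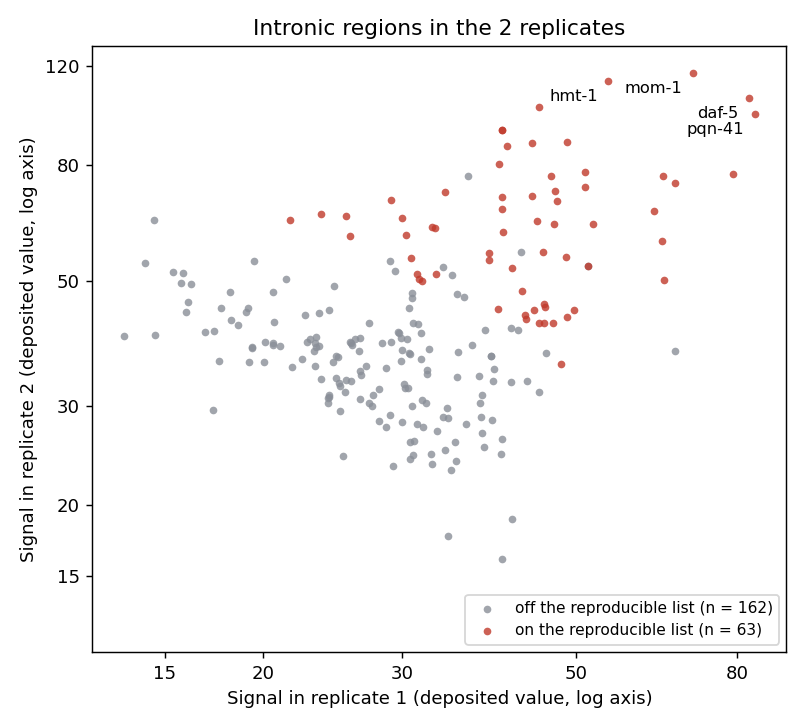
Deposited signal of the intronic members in replicate 1 (x axis) and replicate 2 (y axis), both on log axes, for the 225 members with a region in both replicate lists; red points are the 63 members of the reproducible list and grey points 162 others. The 4 named members lie at the upper right, and the grey points spread between high values in either replicate.

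Further hosts among the 25 strongest members had varied known roles. They included let-526, an ARID1-type subunit of SWI/SNF chromatin remodellers (signal 145.5, rank 128), and acs-13, of the acyl-CoA synthetases (124.0, rank 214). Others were ppfr-1, a regulatory subunit of protein phosphatase 4 (rank 187), and abts-4, of the bicarbonate transporters (126.2, rank 202). The nuclear hormone receptor gene nhr-3 had 114.7 (rank 265) and srt-52, of a chemoreceptor family, had 117.2 (rank 246). In mpk-1, the worm ERK, it was 110.4. W05H12.1 (155.1), Y41G9A.17 (141.5), Y39A1C.1 (141.4), Y67D8A.2 (rank 188) and Y56A3A.7 (113.8) are known by sequence name only. The widths add no contrast, as 229 members were 430 bp wide and 1, in ppfr-1, was 171 bp wide.

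Most hosts had a single member. Of the 192 host genes, 160 had 1, 25 had 2 and 6 had 3: T28B11.1, abts-4, fkh-7, skn-1, unc-43 and zfp-1. The host with the most was daf-5, whose 5 regions (ranks 52, 1044, 1339, 1405 and 1891) all lay in an intron of 14446 bp, its first. The replicates differed on these 5. Those at ranks 52 and 1044 were in the 2000 strongest of both, whereas those at ranks 1339, 1405 and 1891 had signals of 18.17, 16.19 and 15.96 in replicate 1 and 47.63, 49.38 and 44.02 in replicate 2. The forkhead gene fkh-7 had 2 regions in an intron of 16465 bp and another in a later intron. The 3 regions of skn-1, which encodes an Nrf-type factor for endoderm fate and detoxification, had signals of 66.56, 65.83 and 64.06, and the first of them also lies in clec-178.

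Members sat in longer introns, and more often in the first intron, than the intron sequence open to them. Introns were the gaps between all annotated exons of a gene, counted from its 5' end, and 3 members with a pair of hosts were counted in each, which gives 233 pairs. The first intron held 87 (37.3%, 31.1 to 43.9), against 20.1% of the sequence that meets the criteria. Intron 2 held 15.5% against 15.9%, and later introns held 47.2% against 64.0%. The median intron length was 3065 bp, against 928 bp at the median base of that sequence, and the median host length was 10359 bp against 6981 bp. Intron lengths over the pairs ran from 46 to 18116 bp. Distance to the nearest protein-coding start hardly differed, with medians of 1596 bp for members and 1654 bp for the sequence.

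Many members lay ahead of a further start of their host gene. A transcript of the host started downstream of the summit for 131 of 233 pairs (56.2%, 49.6 to 62.7), against 23.5% of the sequence. For 64 pairs (27.5%) the host start nearest to the summit was itself downstream of it. In daf-5 the strongest region was 2834 bp ahead of such a start, in inso-1 2095 bp and in mpk-1 4190 bp. In ivns-1 the distance was 1679 bp, in eps-8, which encodes an actin capping protein of gut microvilli, 1674 bp, and in hlh-30 1431 bp. In hmr-1, the worm E-cadherin, it was 1427 bp, and in daf-14 1159 bp. Host length also differed between members and the sequence, as given above, and its part in this difference was not tested.

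**Figure D2:**
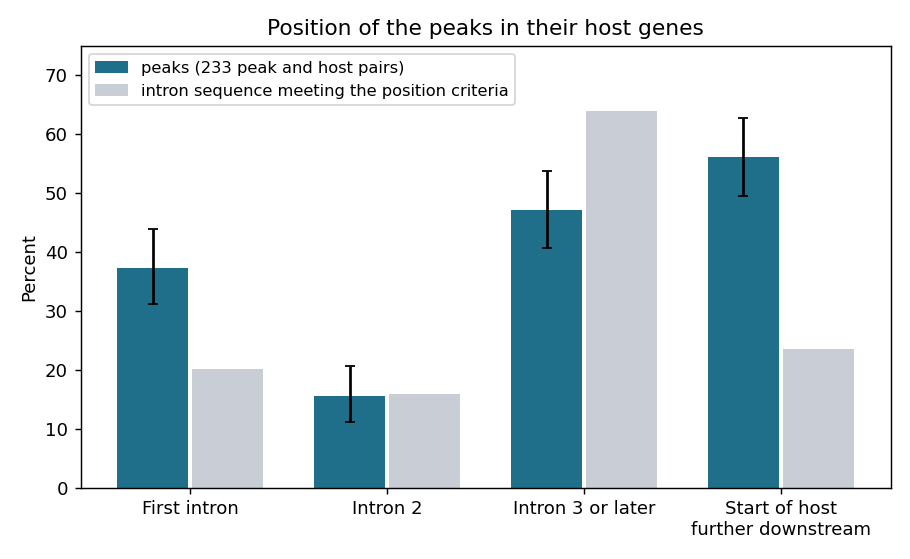
Share in percent (y axis) of the 233 peak and host pairs (blue, with exact 95% intervals) and of the intron sequence meeting the position criteria (grey) in the first intron, intron 2, later introns, and ahead of a further transcript start of the host. Peaks exceed the sequence in the first intron (37.3% against 20.1%) and ahead of a further start (56.2% against 23.5%).

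Some hosts had a strong region in a promoter too. One of the 2000 summits lay in the host's own promoter for 36 of 192 hosts (18.8%). The share was 6.73% of the 17300 protein-coding genes that hold any such intron sequence and 9.28% of the 3609 that hold at least 2000 bp of it. A promoter was counted at every protein-coding start of a gene. The number of starts was not matched between hosts and these genes, and its part in the difference was not tested. An annotated ncRNA gene lay within 200 bp of 17 members, and a gene of the antisense, miRNA or piRNA class within 200 bp of 1 member each. By chromosome, members were densest on III (10.5 per Mb, 46 members) and IV (10.4 per Mb, 46 members) and sparsest on V (6.18 per Mb, 29 members). X held 41 (17.8%, 13.1 to 23.4), against 16.7% of the sequence that meets the criteria and 24.8% of the distal intergenic regions.

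Base composition differed between summits and flanks. Windows reaching 100 bp to each side had 45.6% ± 8.11 G and C (SD over 230 regions), against 35.7% ± 7.38 in windows of the same width centred 500 bp away towards lower coordinates. Promoter summits had 43.3% ± 7.82 and distal intergenic ones 44.4% ± 7.44. Repeat-masked bases made up 19.2% of the summit windows and 36.7% of the flanks. For 132 of the 230 members neither the summit window nor the flank window touched an exon. The 37 bases at the summit occurred once in the genome for 229 of 230 members. The exception was Y16B4A.2.

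Of 11 short patterns, 5 were more frequent at the members' summits than in these flanks and 1 was less frequent, by two-sided exact McNemar tests with Benjamini-Hochberg adjustment over the 11. TGATAAG was found in 40 summit windows (17.4%, 12.7 to 22.9) and 5 flanks (2.17%), with an adjusted exact p of 5.8e-08. The longer CTGATAAG was in 18 summits and 0 flanks (adjusted exact p = 2.8e-05), where 0 of 230 has an upper exact limit of 1.59%. GATA-type sites outside TGATAAG, written WGATAR with W for A or T and R for A or G, were in 43.9% and 33.0% (adjusted exact p = 0.036). The GA repeat GAGAGAGA was in 44 summits (19.1%, 14.3 to 24.8) and 3 flanks (1.30%), with an adjusted exact p of 2.7e-09. CACGTG was in 27 (11.7%, 7.88 to 16.6) and 10 (4.35%, adjusted exact p = 0.013). The run of 7 T was less frequent, in 20.9% of summits and 36.1% of flanks (adjusted exact p = 0.00073).

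Some of these calls depended on the setting or the replicate. WGATAR outside TGATAAG passed under 3 of 15 alternatives and missed the threshold for introns chosen from replicate 1 alone (adjusted exact p = 0.10). The T run missed it for introns chosen from replicate 2 alone (adjusted exact p = 0.069), on the reproducible list (0.054) and with windows of 50 bp (0.061). CACGTG did not pass for the 167 members off the reproducible list (8.38% against 4.79%, adjusted exact p = 0.41) or from replicate 1 alone (adjusted exact p = 0.065). TGATAAG did not pass for the 63 members on the reproducible list (14.3% against 1.59%, adjusted exact p = 0.059), nor did CTGATAAG (adjusted exact p = 0.069). For introns chosen from replicate 1 alone the difference was smaller for TGATAAG (7.31 against 15.2 percentage points, adjusted exact p = 0.0020) and for CTGATAAG (3.46 against 7.83, adjusted exact p = 0.026). The heat shock element core TTCNNGAA, with N for any base, was in 6.52% and 12.6% (adjusted exact p = 0.060), and it passed as less frequent at summits under 5 of 15 alternatives. These were replicate 1 alone (difference -9.23 percentage points, adjusted exact p = 0.0026), windows of 200 bp (p = 0.014), flanks towards higher coordinates (p = 0.030) or at 1000 bp (p = 0.0068), and the 2000 strongest regions meeting the criteria (p = 7.1e-09), each an adjusted exact p. The forkhead word GTAAACA was in 3.48% of both windows, and the AP-1 site TGACTCA in 3.48% and 2.61% (adjusted exact p = 1.0 for each). The SKN-1 type word WWTRTCAT was in 10.0% and 10.4% and the E-box CAGGTG in 5.65% and 5.22% (adjusted exact p = 1.0 for each). Matches are letters in a window and no evidence that a factor was bound there. The gap in base composition between summits and flanks moves with these counts, and its part in them was not tested.

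**Figure D3:**
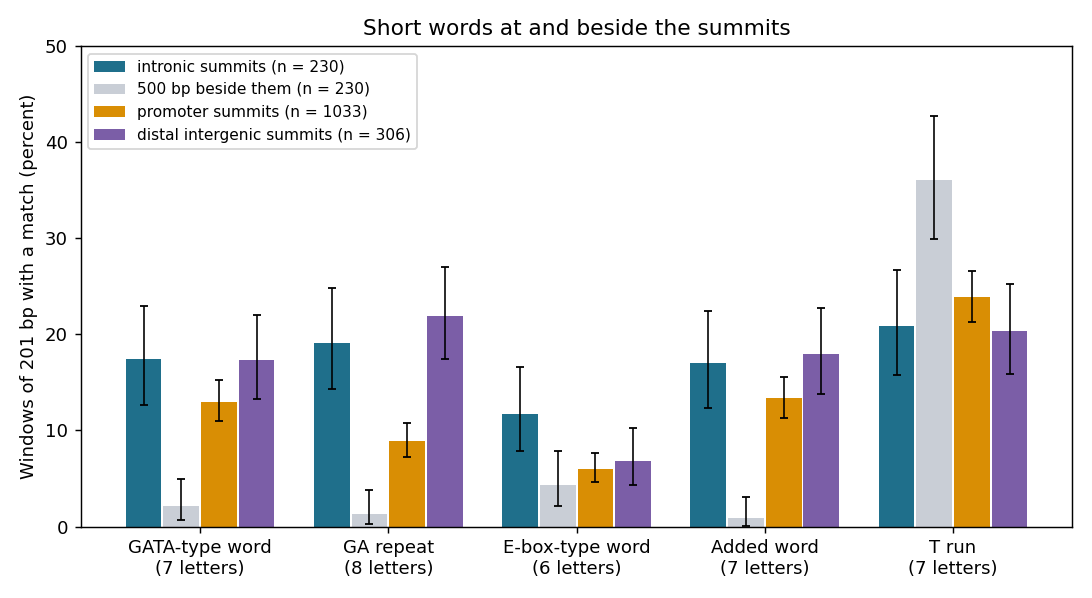
Percent of windows with a match (y axis) for 5 words at intronic summits (blue), 500 bp beside them (grey), at promoter summits (orange) and at distal intergenic summits (purple), with exact 95% intervals; the words are TGATAAG and GAGAGAGA, then CACGTG and GACGCAG (added word), then the T run. The first 4 are more frequent at intronic summits than beside them, for example 17.4% against 2.17% for TGATAAG, and the T run is less frequent (20.9% against 36.1%). GACGCAG was picked because it was more frequent in these same windows, so its excess is no separate result.

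The matches lay near the summits for some words and not for others. Within 300 bp of the 230 summits TGATAAG occurred 79 times, 32 of them within 50 bp. GACGCAG occurred 70 times, 27 of them within 50 bp. CACGTG occurred 63 times, with 14 within 50 bp and its highest counts about 100 bp to either side. Among the 40 members with TGATAAG in the window the nearest match was at a median of 36 bp. The median was 41.5 bp for GAGAGAGA and 46.5 bp for CACGTG. The match was on the host's sense strand in 14 of 36 members for TGATAAG and in 14 of 40 for GAGAGAGA, counting members with 1 orientation only.

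**Figure D4:**
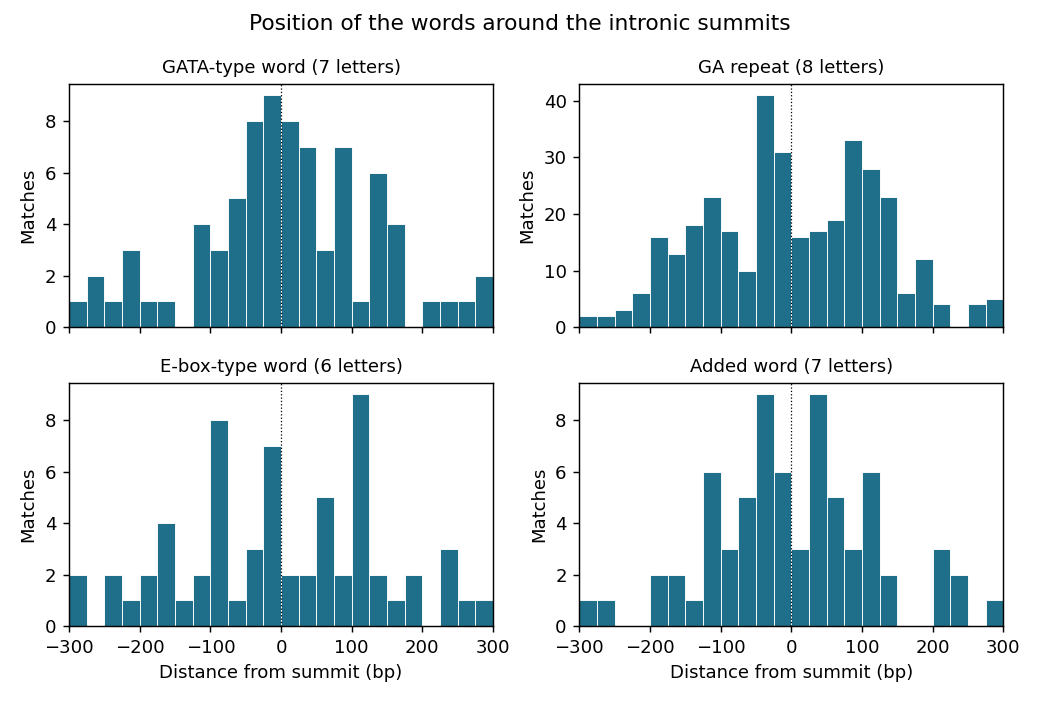
Number of matches (y axis) in bins of 25 bp by distance from the summit in bp (x axis, towards higher coordinates to the right) over the 230 members, for TGATAAG and GAGAGAGA in the upper panels and CACGTG and GACGCAG (added word) in the lower ones; overlapping matches in a GA run count separately. TGATAAG is most frequent at the summit, with 32 of 79 matches within 50 bp, while CACGTG is not (14 of 63).

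TGATAAG and CACGTG shared 6 members, TGATAAG and GAGAGAGA 4, and CACGTG and GAGAGAGA 5, and whether they met more or less often than by their own frequencies was not tested. One or more of these 3 were in 96 members and none of them in 134, and 7 members held TGATAAG more than once. Members on the reproducible list held CACGTG in 20.6% (11.5 to 32.7), against 8.38% (4.66 to 13.7) of those off it, and TGATAAG was in 14.3% and 18.6%. Both pairs of intervals overlap, and neither difference was tested. Members in both replicates held TGATAAG in 18.1% and the others in 16.8%. On X it was in 9.76% (4 of 41) and on the autosomes in 36 of 189, again with overlapping intervals.

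Against other strong regions, the intronic members differed from promoter regions in 2 of 11 patterns by two-sided Fisher's exact tests, adjusted over 22 comparisons. GAGAGAGA was in 19.1% of intronic and 8.91% of promoter windows (odds ratio 2.42, adjusted exact p = 0.00063). CACGTG was in 11.7% of intronic and 62 of 1033 promoter windows (odds ratio 2.08, adjusted exact p = 0.044). Neither held when the strongest regions were taken from replicate 1 alone (adjusted exact p = 0.25 and 0.55), and the GAGAGAGA difference also missed the threshold from replicate 2 alone (adjusted exact p = 0.071) and with promoters widened to 2000 bp upstream and 500 bp downstream (adjusted exact p = 0.86). Another setting took the 2000 strongest intronic regions meeting the position criteria at any rank and left the promoter regions as they were. With these mostly weaker introns the GAGAGAGA difference turned to -2.91 percentage points (adjusted exact p = 0.0093). For TGATAAG the shares were 17.4% and 13.0% (adjusted exact p = 0.33). Distal intergenic regions did not differ from the members past the threshold in any of the 11 patterns. TGATAAG was in 17.3% of them (difference 0.0710 percentage points, adjusted exact p = 1.0), GAGAGAGA in 21.9% (adjusted exact p = 0.85) and CACGTG in 6.86% (adjusted exact p = 0.32). This too changed with the 2000 strongest intronic regions at any rank, again set against unchanged distal intergenic regions. The intronic share was then lower, with a difference of -15.9 percentage points for GAGAGAGA (adjusted exact p = 2.7e-15) and of -9.92 for TGATAAG (adjusted exact p = 1.2e-06). TGATAAG was then also less frequent than in promoter regions (-5.57 points, adjusted exact p = 5.2e-06). Strength and kind of region both differ in that setting, so it does not compare introns with other regions of like strength.

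All 6-letter words were then compared between summits and flanks in the same way, an addition made after the data were seen. Of 2080 words, 169 were more frequent at summits (8.12%) and 131 less frequent (6.30%), adjusted over all 2080. The less frequent ones were led by AAAATT in 66 summits and 147 flanks. Of the 131, 29 had no G or C, 63 had 1, 34 had 2 and 5 had 3. Of all 36 words without G or C, 29 were less frequent and 0 more frequent. Among the more frequent ones AGAGAG (97 and 27) repeats the GA run. The next were ACGCAG in 53 summits and 6 flanks (adjusted exact p = 5.3e-09), GACGCA in 53 and 7, and CGCAGA in 51 and 6, which overlap as 1 longer word. For comparison, the median 6-letter word with 4 letters G or C was in 13.0 summits and 9.00 flanks.

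Their shared stretch GACGCAG was in 39 members (17.0%, 12.3 to 22.4) and 2 flanks (0.870%). It was also in 13.4% of promoter and 55 of 306 distal intergenic windows (adjusted exact p = 0.34 and 0.82 by Fisher's exact test over these 2 comparisons). Of the 39 members, 13 held GAGAGAGA as well, 5 held CACGTG and 2 held TGATAAG, namely jun-1 and hlh-30. The word lay within 50 bp of the summit in 26 of the 39. With it, 117 of the 230 members held at least 1 of the 4 words. It was chosen from these regions, so its share against flanks is given with no test. That choice also favours a high intronic share, so the p-values against promoter and distal intergenic windows decide nothing.

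The hosts were read against 12 lists of genes. Over all protein-coding genes with intron sequence that meets the criteria, 192 of 17300 (1.11%) were hosts. Both measures that follow, hosts and members per Mb of such sequence, describe where members lay and were not tested. Long introns offer more sequence, which the value per Mb takes into account. It does not take into account that members also favoured long and first introns over that sequence, as given above.

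Regulators of endoderm and gut had 2 hosts among 17 genes, skn-1 and hlh-30, with 98.6 members per Mb. This value rests on only 4 members, 3 of them in skn-1. Of elt-2, the main GATA factor of the gut, the only region meeting the criteria was at rank 27340. Genes of gut structure, polarity and transport had 5 hosts among 44 (43.7 per Mb). These were hmr-1 (signal 95.86), eps-8 (85.05), cpr-6 (66.75), the intestinal intermediate filament gene ifc-2 (60.50) and the ABC transporter gene mrp-1. The ifc-2 summit lay in an intron of 51 bp and the cpr-6 summit in one of 193 bp, so their windows also cover exon sequence. Insulin and FOXO signalling had 3 hosts among 28, with 5 members in 138702 bp of such sequence. These were mpk-1, daf-2 and daf-16. The insulin receptor gene daf-2 had 2 members (59.62 and 55.17), and so had daf-16 (57.48 at rank 1783 and 55.65 at rank 1944). None of these 4 held TGATAAG in its window, and both daf-16 members were weak in replicate 1 (20.08 and 18.21) next to replicate 2 (38.97 and 42.59).

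Wnt, TGF-beta, Notch and EGF signalling had 5 hosts among 57 genes, with 9 members and 39.5 per Mb. They were daf-5 and daf-14 of the dauer TGF-beta pathway, mpk-1, and the Notch pathway genes lag-1, a CSL-type factor, and sel-8, a Mastermind-type coactivator. Their signals were 91.34 for daf-14 and 68.05 for lag-1. The list is not complete, as mom-1, whose product lipid-modifies Wnt proteins, is a host outside it. Stress and immunity factors had 3 hosts among 39 (53.9 per Mb), skn-1, jun-1 (62.09) and hlh-30 (56.25). The list of homeobox and neural fate factors had 4 among 66 (32.5 per Mb), and none of these 4 is a homeobox gene. They were lin-14 (78.52), the forkhead genes fkh-9 (73.07 and 70.08) and fkh-7, and the TEAD-type gene egl-44 (58.32). Epidermis and cuticle regulators had 3 among 37 (21.6 per Mb), the Schnurri-type gene sma-9 (101.1), the even-skipped homologue vab-7 (61.93) and the spectraplakin gene vab-10 (56.06).

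The lists of differentiated nerve, pharynx and muscle genes held 0 to 2 members each. By number of genes, at a host share of 1.11% over all genes, lists of this length would hold few or none. By sequence, of which they held 0.0486 to 0.369 Mb each, every one of them lay below the 8.65 members per Mb over all genes. Neither difference was tested. Pharynx (25 genes), body wall muscle (40) and synapse and secretion (39) had 0 hosts. Neuronal ion channels and receptors had 1 host among 61, the diacylglycerol kinase gene dgk-1 (57.27, 2.71 per Mb), a share of 1.64%, and axon guidance and cell adhesion had 1 among 45, hmr-1, which is also on the gut list (2.22%, 6.18 per Mb). The lists share members, since mpk-1, hmr-1, skn-1 and hlh-30 are each on 2 lists. They do not cover all hosts. Hosts on none of them, such as unc-43 with 3 members (ranks 321, 971 and 1812), were not sorted by tissue. The low counts above therefore describe the listed genes only, and not nerve, pharynx or muscle genes as a whole.

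**Figure D5:**
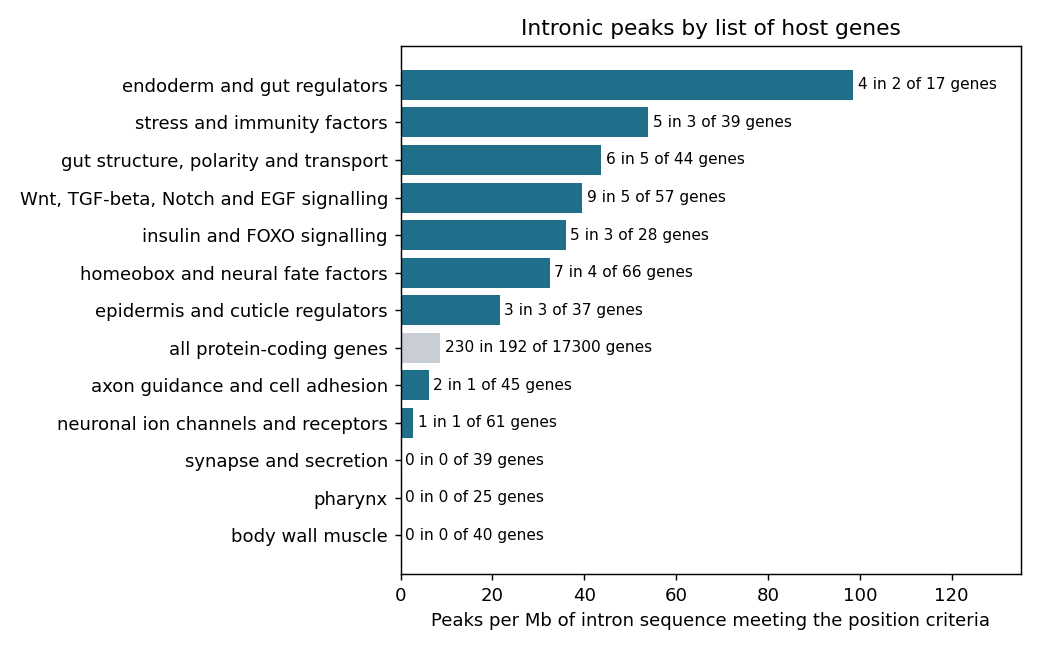
Members per Mb of intron sequence meeting the position criteria (x axis) for each list of host genes (y axis), with the number of members, of hosts and of genes beside each bar; the grey bar is all protein-coding genes (8.65 per Mb). Lists of regulators, signalling and gut genes lie above it. The bars of the pharynx, muscle, channel, synapse and axon guidance lists rest on 0 to 2 members each.

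The gene that was tagged, pqm-1, held no region meeting the criteria in its 1063 bp of such sequence. A member lay in the first intron of unc-119 (rank 883, signal 73.93), the gene mutated in this strain. Transgenes of this kind commonly carry a rescuing unc-119 copy, and which copy gave this signal cannot be told apart here.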

How the data were processed

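Chromatin immunoprecipitation was sequenced for 2 biological replicates of 1 group. Peak lists in ce10 and ce11 were called by the authors on each replicate and on both pooled. A reproducible list was made by irreproducible discovery rate, as the README records. Aligner, peak caller and reproducibility threshold: not given in the sources used here. Each region's deposited signal is the authors' value, and its deposited −log10 q-value is the authors' false discovery rate. Only the 4 ce11 lists were used.

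Positions were read against Ensembl release 115 for WBcel235, and sequences from the RefSeq genome of that assembly. Summits came from the deposited offsets. The threshold for adjusted p-values was 0.05. Intervals are exact binomial (Clopper-Pearson, 95%) and cover counting error only. Regions are not replicates: tests compare places in the genome, not animals. Library depth is unknown and gives no precision.

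Named genes are the hosts of the 25 strongest members, of the strongest with TGATAAG or CACGTG or GAGAGAGA, of at least 4 members, up to 4 per gene list, those at the rank limit, and pqm-1, daf-16, elt-2 and unc-119. Genes named outside that rule, namely mrp-1, sel-8, clec-178, gei-4, lir-1, mdt-26, unc-43, zfp-1, T28B11.1, C08G5.7 and Y16B4A.2, were chosen after their values were seen. Members, patterns and lists were chosen with earlier results of these data known. Calculations ran in Python 3.11.15 with scipy 1.17.1, numpy 2.4.6 and pandas 2.3.3, and the tests were checked on simulated data.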

Additional observations from a re-analysis of the deposited data

How the results depend on the processing

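No paired analysis was possible because the series has 1 group. The 63 members on the reproducible list are few, which limits what they can show, and the unknown depth leaves weak regions unweighed. Each replicate left out meant choosing the regions from the other replicate's list. Members numbered 150 with promoters reaching 2000 bp upstream and 500 bp downstream, 63 on the reproducible list, 122 under a q-value limit of 0.01 and 2000 when the 2000 strongest were counted among regions meeting the position criteria. The share in both replicates was 93.7%, 77.0% and 6.0% under the last 3, and 16.1% with as many regions of each replicate as that list holds.

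GAGAGAGA against flanks passed under all 15 alternatives (differences of 4.25 to 25.7 percentage points). TGATAAG passed under 14 (4.20 to 18.9), missing it on the reproducible list (12.7 points). Patterns past the threshold numbered 2 on the reproducible list and 3 with windows of 50 bp. CACGTG against flanks missed it for the 2000 strongest among regions meeting the criteria (1.00 points), windows of 50 bp (3.91), members whose windows touch no exon (8.33) and members off the reproducible list, added after seeing the data (3.59). Leaving out each replicate gave 4.62 to 7.32 points.

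Counting the 2000 strongest among regions meeting the criteria turned the differences from promoter regions to -5.57 points (TGATAAG), -0.502 (CACGTG) and -2.91 (GAGAGAGA), and from distal intergenic ones to -9.92 (TGATAAG) and -1.36 (CACGTG); GAGAGAGA against the latter went to -15.9. All but the CACGTG differences passed the threshold there. This set is mostly weaker regions. The promoter and distal intergenic regions stayed those among the 2000 strongest of the whole list, so strength differed between the sides. Against promoters CACGTG missed the threshold with exons of protein-coding genes only (4.59) and windows of 50 bp (2.99), and GAGAGAGA with the wider promoter (2.54). Leaving out each replicate gave 2.52 to 7.62 points for CACGTG and 4.75 to 6.13 for GAGAGAGA against promoters, -0.885 to 3.72 for TGATAAG against promoters, -4.41 to -1.27 for TGATAAG against distal intergenic regions, and -0.769 to 0 for TGACTCA against flanks. Other signs that turned were of differences that passed in neither: TGATAAG against distal intergenic regions with the wider promoter (-0.162), the reproducible list (-2.60) and windows of 200 bp (-2.77); GAGAGAGA against them on the reproducible list (9.81) and at the q-value limit (0.546); CAGGTG against flanks on the reproducible list (-6.35), at the q-value limit (-2.46) and with windows of 200 bp (-2.17); TGACTCA with the wider promoter (-0.667); and WWTRTCAT with the wider promoter (1.33), flanks at 1000 bp (2.17) and summits not repeat-masked (1.60).

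Words of 6 letters more and less frequent at summits numbered 72 and 67 with the wider promoter, 21 and 21 on the reproducible list, 53 and 62 at the q-value limit, 461 and 304 for the 2000 strongest meeting the criteria, 53 and 57 with windows of 50 bp, 78 and 78 without exons, 67 and 69 off the reproducible list, 108 to 120 and 86 to 110 leaving out each replicate. The more frequent ones were 86 with flanks at 1000 bp and 111 with summits not repeat-masked. ACGCAG passed under all 15. It was picked from the scan of these members, and most settings reuse all or part of them, so this is no independent support.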

Other observations

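A pair of intronic members held the letters of an internal tRNA promoter. TGGCNNAGTGG, written for the A box, and GTTCRANYC, written for the B box with R for A or G and Y for C or T, were searched together on 1 strand within 100 bp of the summit. They were found in 2 of 230 members (0.870%, exact 95% interval 0.105 to 3.11) and in 0 of 230 flanks. Of the strong regions beside annotated small RNA genes, 20 of 244 (8.20%) held both, as did 1 of 1033 promoter regions and 0 of 306 distal intergenic ones. The members were those of srt-52 (rank 246, signal 117.2, with 52.55 in replicate 1 and 62.85 in replicate 2) and C08G5.7 (rank 1293, 64.03, with 31.7 and 36.36). The position criteria leave out summits within 200 bp of an annotated tRNA gene, so neither has one there. The search was made after the srt-52 sequence was seen, and it has no test. In that stretch capitals mark CACGTG, and the A box letters follow it.
srt-52 (chrV:53445-53500, plus strand): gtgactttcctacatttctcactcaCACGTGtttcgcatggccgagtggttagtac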
